A study of Mus musculus with 24 samples.

Results

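A group of 10 transcription factors known for committing thymocytes to the T lineage were followed through the 3 earliest thymocyte stages of immunodeficient mice, with and without a TLX1 transgene. The 10 genes were chosen by name: Tcf7, Gata3, Bcl11b, Lef1, Ets1, Gfi1, Myb, Tox, Sox4 and Zfpm1. Probe sets were named for 9 of the 10, with 28 probe sets among them, out of 18193 genes that a probe set matching 1 gene named on the whole array; Tcf7 was not analysed here. Each gene was read from the probe set with the highest mean signal over the 24 arrays, and its other probe sets served as a check. Control mice were Prkdc Scid/Scid, and TLX1 mice were IgHμ-TLX1Tg Prkdc Scid/Scid, so that both genotypes lacked working DNA-dependent protein kinase and could not complete antigen receptor rearrangement. The IgHμ promoter that drives the transgene is mainly a B cell promoter, and its activity in thymocytes is leaky. Mice of both genotypes were labelled as outbred ICR, 6 to 8 weeks old and not yet leukemic. The transgene had been kept on a CD1 background before it was crossed into the ICR Scid line, and the study's list of cohorts gives a younger lower age for some of the pools. Each array held a pool of 2 to 5 mice of one sex. There were 4 pools a genotype, and each pool was sorted into DN1, DN2 and DN3 cells, which gave 4 arrays for every genotype and stage.

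T lineage commitment is the step at which a thymic progenitor gives up its other fates. Notch signalling in the thymus switches on TCF-1 (the product of Tcf7) and GATA3, which open and hold T lineage genes, and Bcl11b then closes the access to natural killer (NK) and myeloid programmes. Lef1 is the partner of TCF-1 at Wnt-responsive sites, Ets1 and Myb act at T cell receptor loci, Gfi1 and Zfpm1 (FOG-1, a cofactor of GATA factors) act largely as repressors, Tox is an HMG-box factor needed for CD4 lineage development, and Sox4 is an HMG-box factor of lymphoid progenitors. Several of these factors are also used by NK and innate lymphoid cells, among them Gata3, Ets1, Tox and Tcf7. DN1, DN2 and DN3 are successive stages of CD4- CD8- thymocytes, separated by the adhesion receptor CD44 (high at DN1 and DN2, low at DN3) and the interleukin-2 receptor chain CD25 (low at DN1, high at DN2 and DN3).

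The transcripts of the gating markers followed the sort for CD25 and in part for CD44. Il2ra, which encodes CD25, had a median signal over the 8 pools of 589 in DN1 cells, 4879 in DN2 cells and 4867 in DN3 cells. Cd44 read 1572 in DN1 cells but only 114 in DN2 cells, which were gated as CD44+, and 15.5 in DN3 cells. Ptcra, which encodes the pre-T cell receptor α chain, had median signals of 68.2, 721 and 2124. The DN1 arrays also carried markers of other cell types. The summed signal of 9 NK and innate lymphoid markers ran from 7440 to 20265 over the DN1 arrays. It ran from 1963 to 2696 at DN2 and from 1570 to 2395 at DN3. Nkg7 alone gave 1852 to 2569 at DN2 and 1522 to 2336 at DN3. The defining markers Ncr1, Klrd1, Eomes and Il2rb were each at most 17.5 at DN2 and at or under 10.7 at DN3. The antibodies named for the sort were against CD25, CD44, CD4 and CD8. In bulk arrays a smaller number of cells of one type and less RNA per cell cannot be told apart. The study lists how many cells of each pool fell outside the sorting gates. Most did so in control pool 3 and TLX1 pool 2, and the members' comparisons with DN1 are given with and without them. The array's probe set for the mouse Tlx1 gene read 2.75 to 17.3 in control and 4.51 to 11.4 in TLX1 arrays, and the sources used here do not say whether it can detect the transgene, so the genotype labels were not checked by it.

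Between DN1 and DN2, 4 of the 9 factors rose and 4 fell in limma's paired fit over the 8 pools, each in 8 of 8 pools, and Tox did not pass the test. Myb, Sox4, Gfi1 and Bcl11b rose, by 0.87 to 2.37 on the log2 scale, and Zfpm1, Lef1, Gata3 and Ets1 fell. Over all 27022 probe sets tested, 28.5% rose and 31.2% fell in this comparison, so that a call at this step was common on the array. The median log2 change was -0.31 over the 9 members and -0.06 over all probe sets tested.

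The 4 that rose did so from very different starting points. Myb, a factor of proliferating progenitors that also opens T cell receptor loci, had signals of 564 to 3968 at DN1 with a median of 1291, 5832 to 7490 at DN2 with a median of 6421, and 5235 to 7810 at DN3 with a median of 6185. No DN1 array reached the lowest DN2 array. The DN2 level was 4.34 times the DN1 level (log2 change 2.12 ± 0.29 SE, n = 8 pools, limma adjusted p = 2.21e-05). Sox4 had signals of 430 to 3673 at DN1 with a median of 603 and 3889 to 5705 at DN2 with a median of 4376. Its highest DN1 array came close to the lowest DN2 array without overlapping it. The rise was 5.18-fold, the largest among the members (log2 2.37 ± 0.35 SE, limma adjusted p = 4.7e-05). At DN3 it stood at 4015 to 5696, within the range of DN2.

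Gfi1, a zinc finger repressor that restrains alternative lineage genes and proliferation, rose from 153 to 560 at DN1, median 248, to 745 to 1044 at DN2, median 862. The groups did not overlap, and the DN2 level was 3.29 times that at DN1 (log2 1.72 ± 0.24 SE, limma adjusted p = 2.16e-05). Bcl11b, the factor whose activation marks commitment itself, was already well above the array's median signal at DN1. Its signals were 1515 to 2147 at DN1, median 1827, and 2979 to 3492 at DN2, median 3334. That rise of 1.83-fold was smaller than those of Myb, Sox4 and Gfi1 but tighter between pools, with within-pool changes of 0.57 to 1.19 on the log2 scale (mean 0.87 ± 0.09 SE, limma adjusted p = 7.88e-07).

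**Figure D1:**
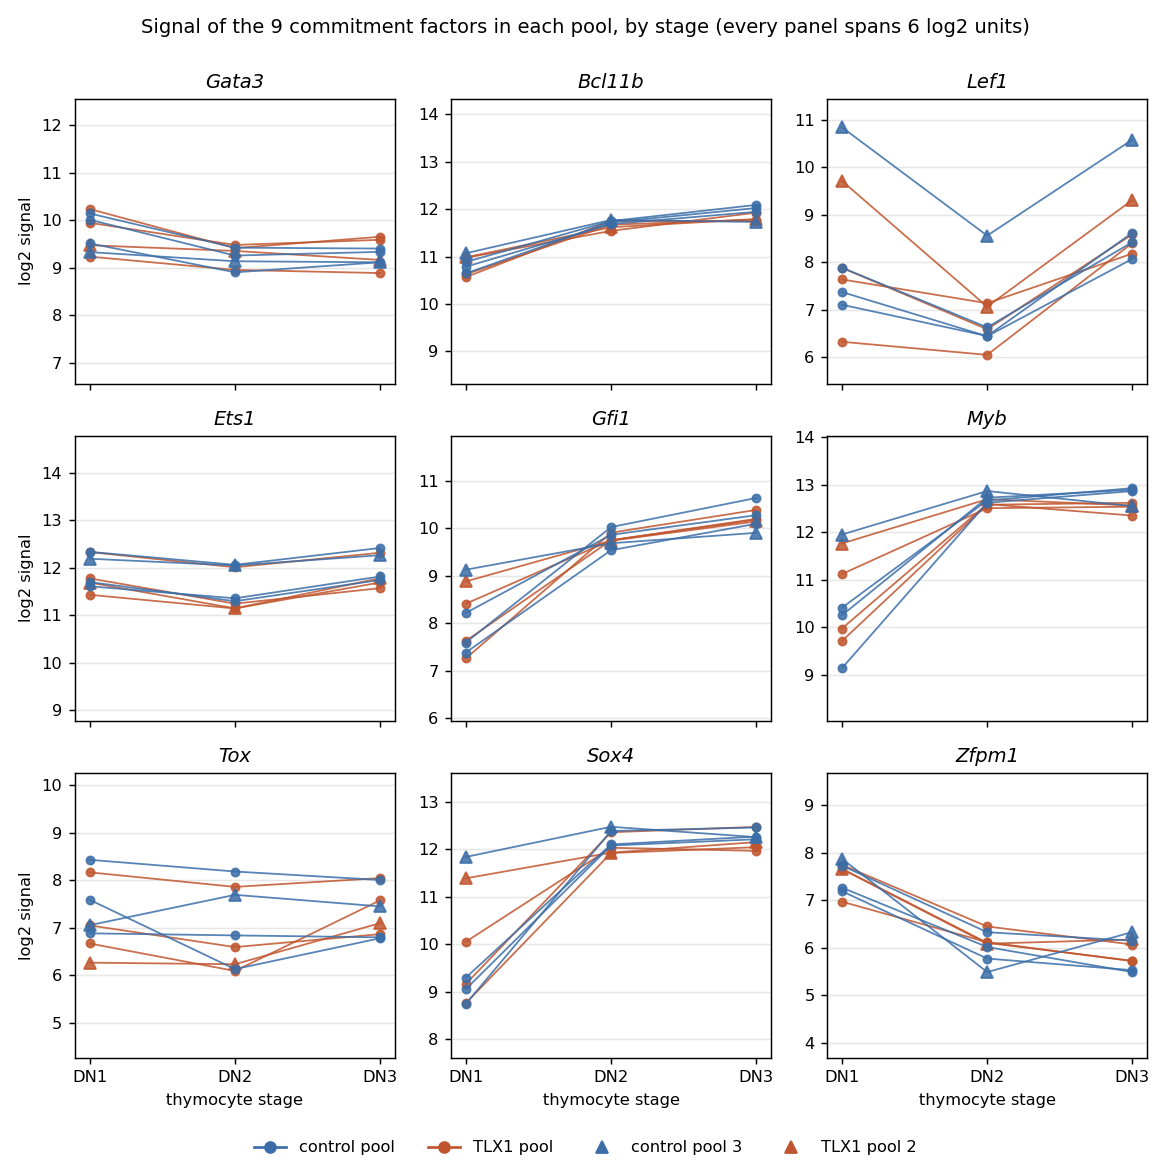
Log2 signal of the main probe set (vertical axis) at DN1, DN2 and DN3 (horizontal axis) for each of the 9 factors, with 1 line a pool, blue for control and orange for TLX1, and triangles for control pool 3 and TLX1 pool 2. Every panel spans the same number of log2 units. Myb, Sox4, Gfi1 and Bcl11b climb between DN1 and DN2 in all 8 pools, Lef1 dips at DN2 in all 8, and the triangles lie highest at DN1 for Lef1, Gfi1, Myb, Sox4 and Bcl11b.

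The promoter windows of the 4 genes that rose together are shown because they share that time course. RefSeq windows (GRCm38.p6, 300 bases that end shortly after the transcription start) were listed for 7 of the 9 factors. Short sequences that factors of this group or their partners bind were searched on both strands: GATAA (GATA factors), CTTTGA (TCF and LEF), CCGGAA (ETS), CAGCTG (E-box) and AACTG (MYB). Matches are in capitals, in lower case is the rest, and no match overlapped another in these windows.
Bcl11b, chr12:108003365-108003664, minus strand: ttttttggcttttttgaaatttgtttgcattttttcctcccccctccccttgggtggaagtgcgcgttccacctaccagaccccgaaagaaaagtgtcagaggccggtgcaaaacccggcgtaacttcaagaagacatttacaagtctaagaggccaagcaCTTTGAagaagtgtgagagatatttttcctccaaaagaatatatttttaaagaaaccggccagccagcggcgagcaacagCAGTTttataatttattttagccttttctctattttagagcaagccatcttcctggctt
Gfi1, chr5:107725756-107726055, minus strand: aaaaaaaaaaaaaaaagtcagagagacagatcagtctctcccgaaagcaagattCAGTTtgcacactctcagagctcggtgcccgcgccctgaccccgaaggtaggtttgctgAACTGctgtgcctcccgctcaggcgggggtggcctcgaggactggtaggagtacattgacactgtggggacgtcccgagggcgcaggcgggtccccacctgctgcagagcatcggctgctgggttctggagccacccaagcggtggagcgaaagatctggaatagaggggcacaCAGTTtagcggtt
Myb, chr10:21160935-21161234, minus strand: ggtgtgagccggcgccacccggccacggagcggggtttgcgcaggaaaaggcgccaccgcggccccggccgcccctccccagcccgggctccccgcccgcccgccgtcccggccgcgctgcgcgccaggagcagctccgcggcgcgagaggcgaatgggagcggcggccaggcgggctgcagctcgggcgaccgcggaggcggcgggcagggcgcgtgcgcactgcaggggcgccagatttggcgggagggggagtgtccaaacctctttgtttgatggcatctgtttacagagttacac
Sox4, chr13:28953650-28953949, minus strand: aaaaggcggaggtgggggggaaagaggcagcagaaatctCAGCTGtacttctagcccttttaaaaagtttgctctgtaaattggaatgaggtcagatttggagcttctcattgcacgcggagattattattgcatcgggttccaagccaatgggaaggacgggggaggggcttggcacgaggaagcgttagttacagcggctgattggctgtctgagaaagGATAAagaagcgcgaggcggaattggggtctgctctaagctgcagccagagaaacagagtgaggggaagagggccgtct
AACTG or its complement was present in the windows of Bcl11b and, 3 times, Gfi1, and in 3 of the 7 windows, against 44.8% of 32851 windows of that length. CTTTGA was found in 1 of the 7 windows, that of Bcl11b, against 16% of all windows. Sox4 held 1 GATAA, present in 25.4% of all windows, and 1 CAGCTG, present in 16.3%. CCGGAA was in 1 of the 7 windows, that of Gata3, against 14.9%. The Myb window held none of the 5 sequences. The 4 genes thus had no one of the searched sequences in common, which says only that these letters are not in these windows.

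Zfpm1, Lef1, Gata3 and Ets1 went the other way. Zfpm1 fell most, from signals of 126 to 236 at DN1, median 203, to 45 to 87.5 at DN2, median 68.5. The ranges did not overlap, and the DN2 level was 0.361 of the DN1 level (log2 -1.47 ± 0.13 SE, limma adjusted p = 3.91e-07). Gata3 stood at 603 to 1207 at DN1, median 859, and 479 to 715 at DN2, median 633. Its stage ranges overlapped, but the signal was lower at DN2 in each of the 8 pools (log2 -0.50 ± 0.08 SE, limma adjusted p = 0.000139). Ets1 had 2768 to 5181 at DN1, median 3424, and 2267 to 4287 at DN2, median 2575. Here the pools differed more from each other than the stages did, and every pool went down (log2 -0.34 ± 0.06 SE, limma adjusted p = 0.000285). The calls of Gata3 and Ets1 depended on the scaling: when each array was centred on its median signal, which moved the median change of all probe sets tested from -0.06 to 0.29, Gata3 read -0.15 (limma adjusted p = 0.217) and Ets1 0.000118 (limma adjusted p = 0.999). Zfpm1 and Lef1 still fell under that scaling, by 1.12 and 0.89 on the log2 scale. Under quantile normalization the calls of Gata3 and Ets1 were kept, at -0.53 (limma adjusted p = 0.00012) and -0.40 (limma adjusted p = 0.000274).

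Lef1 fell from 80.1 to 1834 at DN1, median 217, to 66.1 to 377 at DN2, median 97.5. The DN1 range spanned more than the change itself, and again every pool went down, by 0.28 to 2.65 on the log2 scale (mean -1.23 ± 0.26 SE, limma adjusted p = 0.000852). Without control pool 3 and TLX1 pool 2 the mean was -0.82 (limma adjusted p = 0.00677), and with the pool left out of the model the calls of Lef1 and Ets1 were lost (limma adjusted p = 0.0644 and 0.132). Tox had 76.9 to 345 at DN1 and 68.1 to 291 at DN2, with a log2 change of -0.31 ± 0.19 SE that did not pass (limma adjusted p = 0.179, lower in 7 of 8 pools). The fall in NK and innate lymphoid markers at this step was far larger than that of any member: 9 of 9 measured markers fell, with a median log2 change of -7.25, and 10 of 10 myeloid and dendritic markers that passed the signal filter fell, with a median of -3.66. The part of those cells in the changes of Gata3, Ets1, Zfpm1, Lef1 and Tox was not tested.

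**Figure D2:**
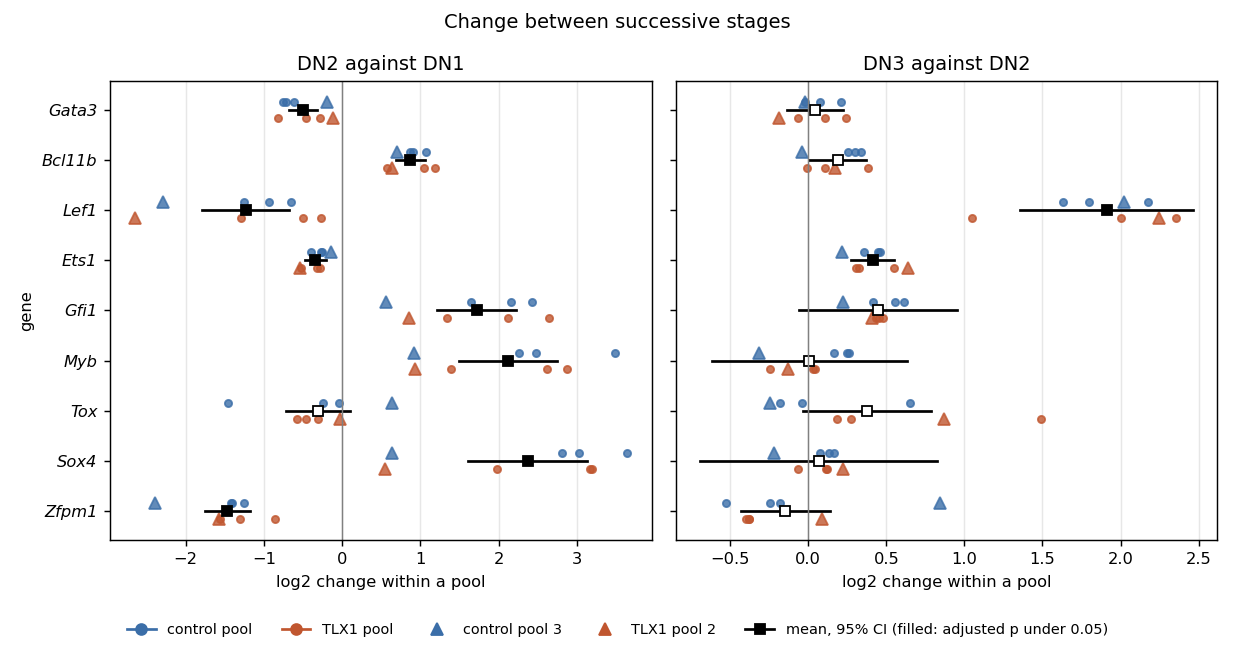
Log2 change within each pool (horizontal axes) from DN1 to DN2 (left) and from DN2 to DN3 (right) for the 9 factors (vertical axis). Blue points are control and orange TLX1 pools, triangles mark control pool 3 and TLX1 pool 2, and squares with lines give the mean of the 8 pools with its 95% confidence interval, filled where the adjusted p was under 0.05. On the left the pools lie on one side of 0 for every factor but Tox, and on the right for Lef1, Ets1 and Gfi1.

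At DN1 the pools differed in a way that ran through several factors. Control pool 3 and TLX1 pool 2 held the highest DN1 signals of 5 of the 9 members, Bcl11b, Lef1, Gfi1, Myb and Sox4. The share of all probe sets with this pattern was not counted. Over all probe sets tested, the deviations of these 2 DN1 arrays from their group means correlated at 0.65, so the likeness was not limited to the members. For Bcl11b the gap was small, 2147 and 2023 against 1515 to 2010. Sox4 read 3673 in control pool 3 and 2688 in TLX1 pool 2, against 430 to 1064 in the other 6 pools. Lef1 read 1834 and 839, against 80.1 to 236. Myb read 3968 and 3482, against 564 to 2229, and Gfi1 read 560 and 472, against 153 to 341. Ptcra, which is low in early progenitors, showed the same split with 1296 and 677 against 20.8 to 102. Not all members shared it: Gata3 read 644 and 711, against 603 to 1207 in the other 6 pools, and Tox 133 and 76.9, against 102 to 345. The NK and innate lymphoid marker sum was lowest in the same pools, at 7440 in control pool 3 and 10080 in TLX1 pool 2 against 15119 to 20265 in the others. The myeloid and dendritic marker sum was lowest in control pool 3, at 5310, but TLX1 pool 2 at 8825 lay within the range of the others, 7083 to 15504. At DN2 none of the 9 members had these pools as its 2 highest, and at DN3 Lef1 and Zfpm1 did. Without them the DN1 to DN2 rises were 2.97 for Sox4, 2.52 for Myb, 2.06 for Gfi1 and 0.94 for Bcl11b on the log2 scale, and the same 8 factors passed the test. Zfpm1 at DN2 was then at 0.407 of its DN1 level, Gata3 read -0.61, Ets1 read -0.34 and Tox read -0.52 (limma adjusted p = 0.054), which did not pass. The part of the cell mixture in these pool differences was not tested.

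**Figure D3:**
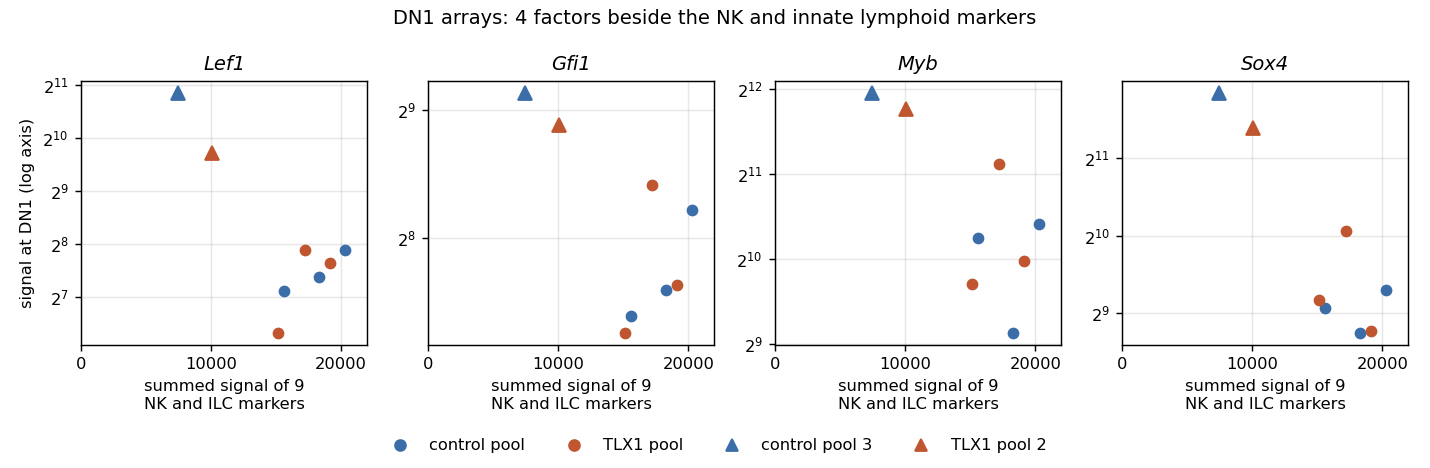
Signal at DN1 (vertical axes, log scale with base 2) of Lef1, Gfi1, Myb and Sox4 against the summed signal of 9 NK and innate lymphoid cell (ILC) markers in the same array (horizontal axes), 1 point a pool, blue for control and orange for TLX1. Control pool 3 and TLX1 pool 2 (triangles) have the lowest marker sums, 7440 and 10080, and the highest signals of all 4 genes. The 4 genes were picked from the members that were highest in these pools.

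From DN2 to DN3 Lef1 and Ets1 rose, 2 of the 9 members, where 6.93% of all probe sets tested rose and 4.07% fell. None of the members passed the test as lower at DN3. Lef1 went from 66.1 to 377 at DN2 to 269 to 1532 at DN3, median 364. It was higher at DN3 in each pool, by 1.05 to 2.36 on the log2 scale, and the mean change was 3.76-fold (log2 1.91 ± 0.26 SE, limma adjusted p = 0.000529). The dip at DN2 and the recovery at DN3 were seen in all 8 pools, those with high DN1 levels included. Ets1 went from 2267 to 4287 at DN2 to 3050 to 5483 at DN3, median 3571, and rose in every pool (log2 0.41 ± 0.06 SE, limma adjusted p = 0.00128).

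Gfi1 was also higher at DN3 in 8 of 8 pools, with signals of 960 to 1598, but its mean change of 0.45 on the log2 scale (95% confidence interval -0.06 to 0.95) did not pass (limma adjusted p = 0.228). Bcl11b reached 3399 to 4351, a difference of 0.19 (0.01 to 0.37, limma adjusted p = 0.16). For Myb the difference was 0.01 (-0.62 to 0.63) and for Sox4 0.07 (-0.69 to 0.83), both with wide intervals. The fit takes a single spread per probe set from all 3 stages, so the differences between pools at DN1 enter these intervals. Within single pools the changes from DN2 to DN3 were smaller in range. They ran from -0.32 to 0.26 for Myb, from -0.22 to 0.22 for Sox4 and from 0.22 to 0.61 for Gfi1. Gata3 stood at 474 to 805 and Zfpm1 at 45 to 80.7 at DN3, with differences of 0.04 and -0.15. Without control pool 3 and TLX1 pool 2 the fall of Zfpm1 passed at -0.35 (limma adjusted p = 0.0322). In control pool 3 alone Zfpm1 moved from 45 at DN2 to 80.7 at DN3, against the direction of most pools. The DN2 array of that pool had the highest 3′/5′ index of the 24 (a log2 measure of RNA and labelling quality from the Actb and Gapdh control probe sets), 0.990 against at most 0.572 on the other arrays, and its part in the Zfpm1 value was not tested.

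Over the whole interval from DN1 to DN3, 5 members rose and 2 fell, where 30.1% of all probe sets rose and 25% fell. Sox4 stood 5.43-fold, Gfi1 4.49-fold, Myb 4.36-fold and Bcl11b 2.09-fold above DN1, all in 8 of 8 pools (limma adjusted p from 1.05e-07 to 3.74e-05). Lef1 was 1.60-fold higher in the fit (limma adjusted p = 0.0373), in 6 of 8 pools, and this call was kept in only 3 of the 8 fits that left out 1 pool, where the log2 change ran from 0.45 to 0.87. It was lost without control pools 1, 2 or 4 and without TLX1 pools 1 or 4. With control pool 3 and TLX1 pool 2 both left out it was 1.01 on the log2 scale (limma adjusted p = 0.00206). Zfpm1 at 0.326 and Gata3 at 0.73 of the DN1 level were lower in 8 of 8 pools. Ets1 and Tox did not pass, at 0.07 (-0.07 to 0.20) and 0.06 (-0.35 to 0.48) on the log2 scale, although Ets1 read 0.26 (limma adjusted p = 0.00373) when arrays were centred on their medians. Without control pool 3 and TLX1 pool 2 the same 7 members passed: the log2 change was 3.06 for Sox4, 2.60 for Myb, 2.55 for Gfi1, 1.17 for Bcl11b, -0.52 for Gata3 and -1.65 for Zfpm1, while Ets1 at 0.06 and Tox at -0.12 did not pass.

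The other probe sets of these genes gave the same directions from DN1 to DN2 where they carried signal. All 4 probe sets of Bcl11b, all 3 of Myb and 6 of the 8 of Sox4 rose from DN1 to DN2, and both of Lef1 and all 4 of Ets1 fell. The remaining pair for Sox4 had mean signals of 1.46 and 2.62, below the filter on low signals. From DN2 to DN3 both of Lef1 rose, and of the 4 of Ets1 the main one alone passed. The second Lef1 probe set fell by 1.31 and then rose by 1.82 on the log2 scale, close to the main one. None of the 3 Tox probe sets passed the test at either step.

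**Figure D4:**
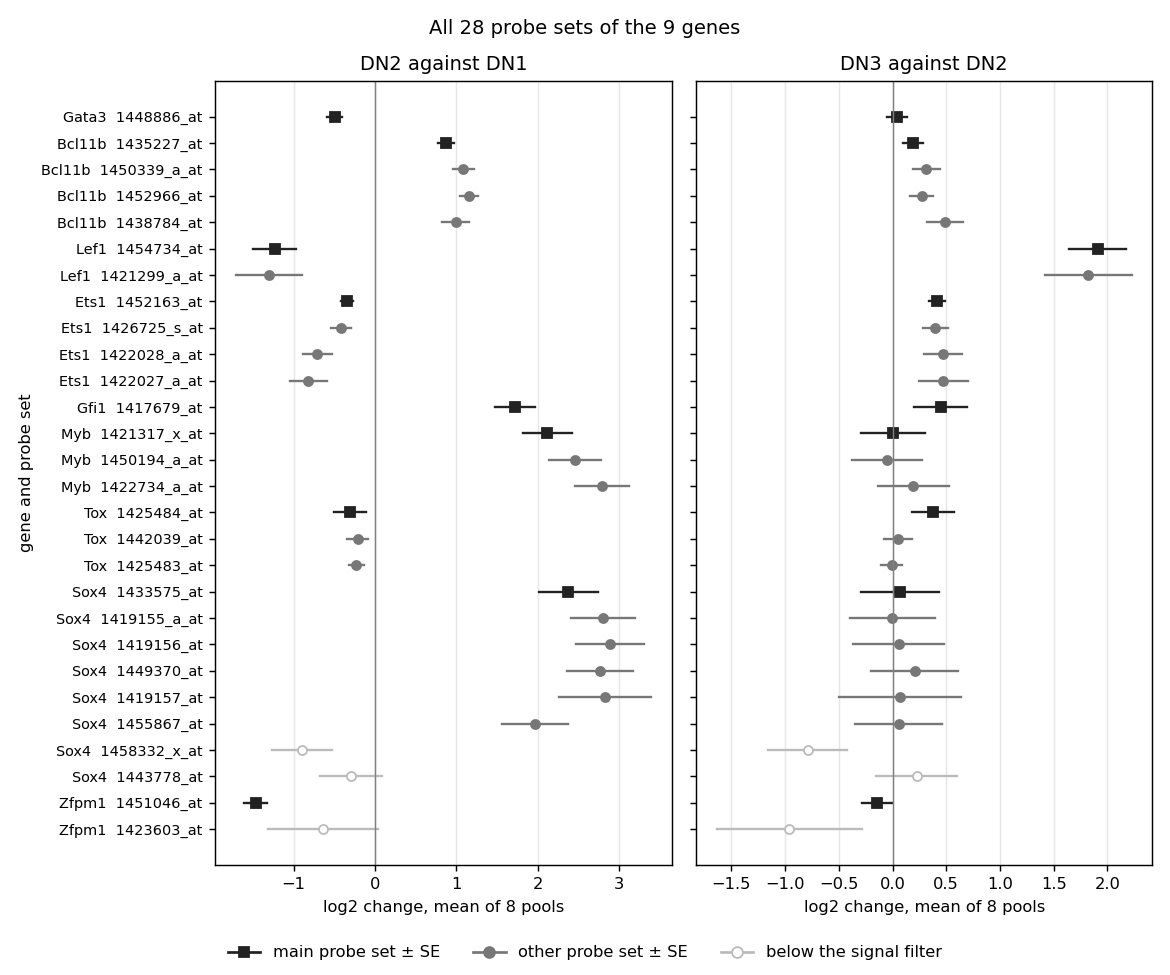
Log2 change (horizontal axes, mean of 8 pools) of all 28 probe sets of the 9 genes (vertical axis), from DN1 to DN2 on the left and from DN2 to DN3 on the right, fitted with no filter on signal, with bars for 1 standard error. Black squares are the main, grey circles the other probe sets, and open circles those below the signal filter. Probe sets of one gene that carry signal lie on the same side of 0 at DN1 to DN2.

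Other regulators of early T cells, listed for comparison, also split both ways. Of 18 such genes, 7 rose and 6 fell between DN1 and DN2, with a median log2 change of -0.05. Hes1, a direct Notch target, rose by 2.42, Runx1 rose by 1.69, Ikzf3 (Aiolos, high in NK cells) fell by 7.54 and Ikzf1 (Ikaros) fell by 0.73. Between DN2 and DN3, 2 rose, Dtx1 by 0.67 and Hes1 by 0.39, both Notch targets, and 2 fell, Runx3 by 0.45 and Cbfb by 0.19. Of 19 T cell genes such as receptor chains and signalling proteins, 12 rose and 5 fell at the first step, median 0.55. Those with the smallest p were 4 that fell: Cd28 fell by 3.52, Zap70 fell by 3.06, Cd2 fell by 6.21 and Il7r fell by 1.99. Zap70, Cd2 and Il7r are also used by NK or innate lymphoid cells. At the second step 3 rose, Cd28 by 0.99, Zap70 by 0.67 and Cd247 (the CD3 zeta chain) by 0.45, and 1 fell, Cd5 (a receptor that dampens signalling), which fell by 1.02. Of 13 progenitor regulators that passed the filter, 6 rose and 3 fell between DN1 and DN2, and 9 fell with none rising between DN2 and DN3, median -1.06. Lyl1 rose by 2.72 and then fell by 2.63. At the first step Erg rose by 3.72, Nfe2 rose by 3.22 and Gata2 fell by 1.64. At the second step Hhex fell by 1.60, Tal1 fell by 2.16 and Spi1 (PU.1, a myeloid factor that commitment silences) fell by 1.35.

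The genes whose course over the 24 arrays lay nearest to that of each member were found by the root mean square of the difference between centred log2 signals. Notch1 lay nearest to Myb (0.26) and Nck2 nearest to Gfi1 (0.23), against standard deviations of 1.17 and 1.04 of the members themselves. Hacd1 and Marcks, both at 0.23, lay nearest to Sox4, and Cep57l1 (0.14) and Hp1bp3 (0.14) to Bcl11b. Lef1 had no close neighbour: the nearest, Rdh10 and Slamf6, lay 0.64 and 0.68 away, against its standard deviation of 1.3. The nearest to Gata3 were Flii and Pip4k2b (both 0.15), to Ets1 Birc6 (0.15) and Ythdf3 (0.15), to Tox Mndal (0.26) and Pnrc2 (0.27), and to Zfpm1 Polg (0.28) and Rasa2 (0.30). The second nearest were Idh2 for Myb (0.27) and Ift80 for Gfi1 (0.24). This is a description over arrays that share pools and stages.

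The transgene question was asked at each stage by comparing the 4 TLX1 pools with the 4 control pools. By their main probe sets, none of the 9 factors passed limma's test at any stage and none had an unadjusted p under 0.05. For none of these probe sets did the pools of the genotypes fail to overlap. On the whole array the background was also low: 0.0037% of probe sets passed at DN1, 0.0037% at DN2 and 0.0185% at DN3, while 1.72%, 3.53% and 6.02% had an unadjusted p under 0.05 and 1.25%, 2.75% and 3.89% did not overlap. The median log2 difference of the members, TLX1 minus control, is given beside that of all probe sets: -0.04 against 0.01 in DN1 cells, -0.13 against -0.02 in DN2 cells and -0.14 against 0.01 in DN3 cells. The members' medians moved with the scaling: under quantile normalization they were -0.03, 0.00 and 0.03 at the 3 stages in that order, and after median centring -0.05, -0.03 and -0.16. Without control pool 3 and TLX1 pool 2 the 9 differences at DN1 ran from -0.34 for Tox to 0.33 for Myb, and none passed.

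Among the main probe sets the smallest p belonged to Myb at DN3. Its signals were 7630, 7810, 6008 and 7486 in control pools 1 to 4 and 5957, 6063, 5235 and 6308 in TLX1 pools 1 to 4. The TLX1 pools all lay below 3 of the 4 control pools, with control pool 3 among them. The difference was -0.29 on the log2 scale (95% confidence interval -0.61 to 0.02, unadjusted p = 0.0665 and adjusted p = 0.86 in limma), and it stayed negative, between -0.38 and -0.24, whichever pool was left out. The sign depended on the scaling: under quantile normalization the difference was 0.01 (unadjusted p = 0.925 in limma), and after median centring it was -0.31 (unadjusted p = 0.0792 in limma). With control pool 3 and TLX1 pool 2 both left out it was -0.39 (unadjusted p = 0.0381 and adjusted p of 1 in limma). Myb differed by -0.13 (-0.40 to 0.15) at DN2 and by 0.20 (-1.27 to 1.68) at DN1. By quantitative RT-PCR normalized to β-actin, the study reported higher c-myb in TLX1 than in control thymocytes. Its text names no stage for that difference. Its figure legend lists DN1, DN2, DN3 and total unsorted thymocytes separately, and the values plotted there were not read here. In the main fit the array value had the opposite sign at DN2 and DN3 and the same sign at DN1.

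How much the arrays could show differed by gene. For the main probe set of Bcl11b the intervals were narrow: -0.06 (-0.47 to 0.35) at DN1, -0.09 (-0.35 to 0.17) at DN2 and -0.14 (-0.43 to 0.16) at DN3. At DN2 that is a ratio of TLX1 to control between 0.787 and 1.13. The other 3 Bcl11b probe sets read 0.00 to 0.15 at DN2, with standard errors of 0.16 to 0.32. Gfi1 at DN2 and DN3 read 0.01 (-0.32 to 0.34) and 0.00 (-0.40 to 0.40). Gata3 read -0.03 (-0.68 to 0.62), 0.12 (-0.28 to 0.52) and 0.08 (-0.37 to 0.53) from DN1 to DN3. For Lef1 the interval at DN1 ran from -2.56 to 1.73 about -0.41, and that of Sox4 from -1.68 to 1.89 about 0.11. Leaving out control pool 3 turned the Lef1 difference at DN1 from -0.41 to 0.44, and with control pool 3 and TLX1 pool 2 both left out it was -0.17. As a ratio, the Lef1 interval at DN1 ran from 0.17 to 3.33, so a difference of that size was not detectable with these arrays. Zfpm1 at DN2 read 0.29 (-0.17 to 0.75), Ets1 read -0.15, -0.31 and -0.22, and Tox -0.45, -0.52 and 0.14 from DN1 to DN3.

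**Figure D5:**
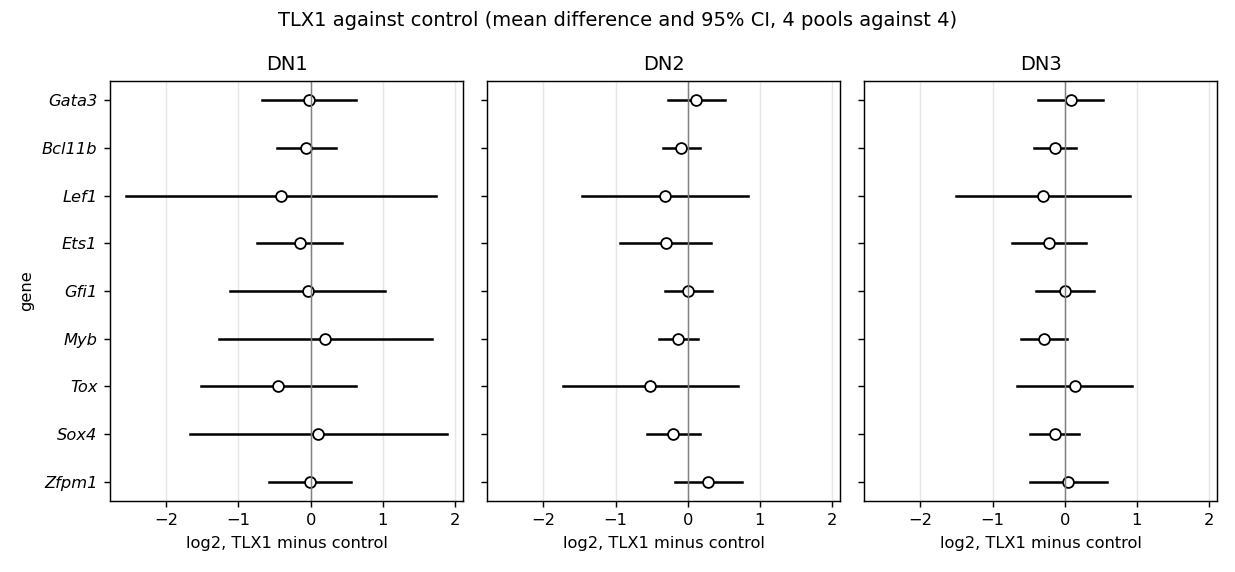
Difference in mean log2 signal, TLX1 minus control (horizontal axes), of the main probe sets of the 9 factors (vertical axis) at DN1, DN2 and DN3, as points with 95% confidence intervals from limma over 4 pools against 4. Every interval holds 0, those of Lef1 and Sox4 at DN1 being the widest and those of Bcl11b among the narrowest.

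The course through the stages was also compared between the genotypes. In both, the same 4 factors rose and the same 4 fell from DN1 to DN2, Myb by 2.28 in control and 1.95 in TLX1 pools, Sox4 by 2.53 and 2.22, Gfi1 by 1.70 and 1.74 and Bcl11b by 0.89 and 0.86 on the log2 scale. Lef1 rose by 1.91 in each from DN2 to DN3. None of the members, and 0% of all probe sets, passed limma's test of a difference in stage change between the genotypes at an adjusted p under 0.05, while 3.6%, 2.89% and 3.23% of all probe sets had an unadjusted p under 0.05 for DN2 against DN1, DN3 against DN2 and DN3 against DN1, and 0 members did. Tox had the smallest of these p-values: it differed by 0.05 in control and 0.70 in TLX1 pools from DN2 to DN3, a difference of 0.66 (-0.17 to 1.48, unadjusted p = 0.109 and adjusted p of 1 in limma). The 3′/5′ index did not overlap between the genotypes at DN3, at 0.501 to 0.572 in control and 0.101 to 0.339 in TLX1 arrays. At DN3 genotype and index cannot be told apart. The mean index in control and TLX1 arrays was 0.26 and 0.06 at DN1 and 0.52 and 0.22 at DN2. With the index as a covariate no member passed in TLX1 against control, but some differences at DN1 moved. Lef1 read -2.29 there (unadjusted p = 0.0399 and adjusted p = 0.639 in limma), Sox4 -1.46 and Myb -1.07. In the stage comparison with this covariate, Tox was called as lower at DN2 than at DN1 (-0.55, limma adjusted p = 0.0398).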

How the data were processed

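Affymetrix mouse arrays measured 24 sorted samples: DN1, DN2 and DN3 cells of 8 pools, 4 a genotype. The deposited values are linear signal intensities that the authors made with MAS5 in Affymetrix Expression Console, per the labels, and scaled by array: the 2% trimmed mean was 150 on each. Tool versions are not given in the sources used here. MAS5 subtracts mismatch signal, which makes low values noisy, and its scaling fixes the mean level of every array. No count or depth applies, and the number of arrays limits the precision.

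Signals under 1 were set to 1 and log2 was taken. Of 45037 probe sets other than array controls, the 60% with the highest mean log2 signal (27022) were tested. Of these 45037, 34945 matched 1 gene, 932 several and 9160 none in the platform annotation, with symbols updated through GRCm38.p6 RefSeq. TLX1 was compared with control at each stage by limma 3.58.1 (R 4.3.3), 4 pools against 4. Stages were compared in 1 limma model over the 24 arrays with the pool as a block. P-values are two-sided and Benjamini-Hochberg adjusted over all tested probe sets, called under 0.05. The pools are separate groups of mice, but p-values for TLX1 against control measure only the spread between them. Those of the stage comparisons measure only the spread of the changes within pools, taken over all 3 stages together. Pool numbers were not used to pair the genotypes. Correlations of deviations from group means ran from -0.34 to 0.48 for pools of the same number (median 0.08, 4 pool pairs at 3 stages). For pools of different numbers they ran from -0.42 to 0.65 (median -0.10). By stage the pools numbered 4 correlated at 0.48, 0.40 and 0.37, and those numbered 1 at 0.13, 0.16 and 0.19. Those numbered 2 ran from -0.25 to 0.04 and those numbered 3 from -0.34 to -0.05. The scripts were tested on simulated data. The members and all gene lists were chosen with earlier results of these data known. Values are given for all members and for the 2 nearest genes of each; in the comparison lists genes are named only from the 4 with the smallest p at each stage step. The lists of T cell regulators, T cell genes and progenitor regulators are described by counts and medians, and 7 marker lists (thymocytes, NK and innate lymphoid cells, B cells, myeloid and dendritic cells, mast cells and basophils, erythroid cells and megakaryocytes, thymic stroma) by summed signal. Alternatives covered scaling, filter, offset (32 added, no floor), blocks, sex, the 3′/5′ index, the methods' unpaired test on these values, the median of a gene's probe sets and leaving out pools. Authors' tables of fold changes were not used.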

Additional observations from a re-analysis of the deposited data

Results flagged for a closer look

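In 6 of 54 groups of 4 pools (9 factors, 3 stages, 2 genotypes), 1 pool lay apart from the others by Dixon's ratio of its gap to the whole range (above the 95% critical value), where chance gives about 1 in 20 groups. Lef1 in DN2 control cells was high in pool 3, at 377 against 86.8 to 98.8 in the other pools (ratio 0.912); that array had the highest 3′/5′ index of the 24, 0.990 against at most 0.572, and its part in the Lef1 value was not tested. Ets1 in DN2 TLX1 cells was high in pool 4, at 4136 against 2267 to 2432 (ratio 0.883), and Gfi1 in the same array, at 962 against 856 to 862 (ratio 0.939). Myb in DN3 control cells was low in pool 3, at 6008 against 7486 to 7810 (ratio 0.839). Zfpm1 was low in TLX1 pool 4 at DN1, at 126 against 203 to 215 (ratio 0.885), and high in TLX1 pool 3 at DN2, at 87.5 against 68.1 to 69.6 (ratio 0.915). Control pool 3 and pool 4 of the TLX1 genotype account for 5 of the 6.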

How the results depend on the processing

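None of the 9 factors passed in TLX1 against control at any stage under any of 20 alternatives (540 values, smallest limma adjusted p 0.639), nor in the TLX1 effect between stages under 14 (378 values, smallest 0.782). With the pool number as a replicate block 0 members passed at any stage either, as without it, and the smallest unadjusted p was that of Tox at DN1 (0.0397, adjusted p = 1). The count that rose from DN1 to DN2 stayed at 4 under all 20. The count that fell, 4, was 2 after median centring, where Ets1 read 0.000118 on the log2 scale, and 2 with no pool block. Leaving out 1 pool gave 4 to 5, and in the control pools alone Ets1 lost its call (limma adjusted p = 0.0644). The count that rose from DN2 to DN3, 2, was 0 with no pool block, and in separate fits of each genotype's 12 arrays it was 1 in the control and 0 in the TLX1 pools, where the model over 24 arrays gave 1 and 2. Leaving out control pool 3 and TLX1 pool 2 raised the count that fell at that step from 0 to 1. Of 340 alternative values for called stage changes 319 stayed called and 339 kept their sign; the causes were not tested. The Lef1 call from DN1 to DN3 was kept in 9 of 20 alternatives. Besides fits that left out 1 pool, it was lost with no filter (0.68, limma adjusted p = 0.0644) and with the pool as a random block (0.68, 0.121). It was also lost with no pool block (0.68, 0.337) and with the median of the gene's probe sets (0.60, 0.118). The control pools alone (0.62, 0.113) and the TLX1 pools alone (0.73, 0.181) did not give it either. Of the values that were not called in stage changes, 4 of 200 became called. No detection calls were used, so that low signals were limited by the filter alone.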

Other observations

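The pools numbered 4 of both genotypes shared a pattern that no comparison above uses. Ets1 at DN2 read 4287 in control pool 4 and 4136 in TLX1 pool 4, and 2267 to 2629 in 5 of the other 6 pools, control pool 3 being at 4246. At DN1 and DN3 the same 3 pools were highest. Tox read 345 and 287 in the pools numbered 4 at DN1 against 76.9 to 192 elsewhere, and 291 and 232 at DN2 against 68.1 to 207. Cd3e, which encodes a chain of the T cell receptor complex, was lowest in these pools throughout. DN1 cells of control and TLX1 pool 4 read 1416 and 1131 against 2076 to 3572 in the other 6 pools. DN2 cells read 1267 and 1215 against 2774 to 3812, and DN3 cells 1502 and 1272 against 2604 to 4426. Both pools were of female mice, as were control pool 2 and TLX1 pool 1, which did not share it. The study's list of cohorts gives the mice of both pools numbered 4 as older than those of control pool 2 and TLX1 pool 1. No other pool has a lower age limit as high as theirs in that list. The part of age in this pattern was not tested.

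The remaining marker lists were summed in the same way. Over the 8 pools at DN1, DN2 and DN3, the summed signal of 6 thymocyte markers ran from 6501 to 9697, 9735 to 14889 and 11337 to 17509. That of 7 B cell markers ran from 161 to 448, 526 to 773 and 680 to 1173, and that of 11 myeloid and dendritic markers from 5310 to 15504, 1045 to 1337 and 599.8 to 1005. The 5 mast cell and basophil markers gave 649 to 1995, 1230 to 2217 and 292 to 615, the 5 erythroid and megakaryocyte markers 95.7 to 168, 111 to 154 and 123 to 193, and the 6 thymic stroma markers 109 to 205, 515 to 783 and 672 to 1180. Single genes made up much of several sums. Epcam had medians of 90.2, 593 and 880, and no other stroma marker had a median above 24.9 at any stage. At DN2 Cpa3 had a median of 1541, against at most 18.5 for the other mast cell and basophil markers. Lyz2 had medians of 677 at DN2 and 696 at DN3. Of the B cell markers, Cd79a, Pax5, Ebf1 and Ms4a1 had medians of at most 9.95 at every stage.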
